A study of Macaca mulatta with 31 samples.

Results

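The genes described here are the 200 most abundant transcripts of single rhesus macaque blastocysts among the 20043 genes whose Ensembl identifier number is under 50000, out of 35395 in the deposited table. Without that limit 22 of the 200 most abundant would be genes with higher numbers, and 178 of those described here would remain. All ranks given count only genes under the limit. The 200 were chosen by measured level, as the 200 genes with the highest median over all 31 blastocysts of CPM, a gene's count divided by the column total and scaled to a total of 1e+06. The last 2 genes inside the limit had median levels of 552.2 and 550.5 CPM, and the first 2 outside it had 550.1 and 547.8 CPM. Abundance, order by level and the size of the share of counts follow from that choice and are given as description. A reference table paired 197 of the 200 identifiers with a symbol, and the other 3 stand at ranks 6 (ENSMMUG00000013446), 20 (ENSMMUG00000009425) and 62 (ENSMMUG00000005563).

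Female macaques fed a Standard Chow Diet (SCD) gave oocytes in a first controlled ovarian stimulation cycle (COS #1), were moved to a high-fat Western Style Diet (WSD), and gave oocytes again in a second cycle (COS #2). The oocytes were fertilised in vitro and grown to blastocysts, each of which was sequenced as a library of its own. The labels also class every embryo by whether it shed cellular fragments during cleavage, and they list all of the sequenced embryos as non-multipolar. The 14 SCD blastocysts came from COS #1, 6 of them fragmented and 8 non-fragmented, and the 17 WSD blastocysts came from COS #2, 9 of them fragmented and 8 non-fragmented. Diet and stimulation cycle divide the blastocysts in the same way and cannot be told apart. Some blastocysts share a mother, and because the mother of each was not used here, every blastocyst was treated as independent.

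A blastocyst holds an outer trophectoderm, which forms the placenta, and an inner cell mass, which gives the epiblast and the hypoblast. Among the 200 are genes for actin and tubulin, which give cells their shape, for chaperones that fold proteins, for mitochondrial and glycolytic enzymes, for lysosomal proteases, and for keratins of the outer epithelium. Whether any such group is more common there than among other genes was not tested.

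Total counts ran from 11997445 to 27992541 per SCD blastocyst and from 10037852 to 29865336 per WSD blastocyst. The lowest count of any of the 200 genes in any blastocyst was 152, so counting error was small beside the differences between embryos. SCD blastocysts had 20064 ± 2225 genes detected (SD, n = 14) and WSD blastocysts 17786 ± 1775 (SD, n = 17), and that gap between the diets stands beside each diet result given here.

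The blastocyst label was checked against marker genes. Of 8 trophectoderm genes found in the table, KRT18 was the most abundant at a median of 5546 CPM, and CGA, the placental hormone subunit made later, was near 0 at 0.299 CPM. Inner cell mass genes were led by POU5F1 at 590.2 CPM, and hypoblast genes by APOA1 at 536.5 CPM. The 5 genes of the oocyte marker list were low, led by GDF9 at 4.34 CPM with FIGLA at 0, and blood genes were at 0.236 CPM for HBA and 0.0908 CPM for PTPRC. Of 6 cumulus and granulosa genes, STAR had a median of 40.0 CPM, CYP19A1 had 0.298 CPM, and FSHR, AMH and INHBA had 0.

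SCD 8, WSD 8 and WSD 16 stood apart from the other 28 blastocysts. Across the 200 genes, these 3 libraries held the lowest value for 92 genes and the highest for 73. The typical gene lay 0.63 log2 units from its median over all blastocysts in SCD 8, 0.69 in WSD 16 and 0.52 in WSD 8. They were picked after the values were seen, as the libraries with the lowest edgeR scaling factors (0.922, 0.890 and 0.884 for SCD 8, WSD 16 and WSD 8), and results are given with and without them. SCD 3 came next, with 0.47 log2 units.

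Together the 200 genes took 24.0% ± 1.16 (SD, n = 31) of all counts. SCD blastocysts gave them 24.2% ± 1.21 (SD, n = 14) and WSD blastocysts 23.8% ± 1.11 (SD, n = 17). The difference of −0.422 percentage points was smaller than the spread within either diet. The SCD blastocysts ran from 22.7% in SCD 3 to 27.2% in SCD 8, and the WSD blastocysts from 21.5% in WSD 16 to 26.0% in WSD 10. The groups overlapped over most of their range, and the highest and the lowest share both came from libraries named above as standing apart. Each blastocyst's share carries a 95% Wilson interval of at most ± 0.0271 percentage points, for counting error only. Without the 3 libraries the shares were 24.0% ± 0.909 (SD, n = 13) and 23.9% ± 0.904 (SD, n = 15), and the difference was −0.151 points. The 200 genes next in rank took 9.28% ± 0.210 after SCD and 9.35% ± 0.162 after WSD.

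By fragmentation class the share was 23.9% ± 0.933 (SD, n = 15) in fragmented and 24.1% ± 1.35 (SD, n = 16) in non-fragmented blastocysts, and averaged over the diets the difference was −0.254 points. Within SCD it was 23.9% ± 1.06 in the 6 fragmented and 24.5% ± 1.33 in the 8 non-fragmented embryos. Within WSD it was 23.8% ± 0.904 in the 9 fragmented and 23.8% ± 1.36 in the 8 non-fragmented embryos. No class difference exceeded the spread between embryos.

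**Figure D1:**
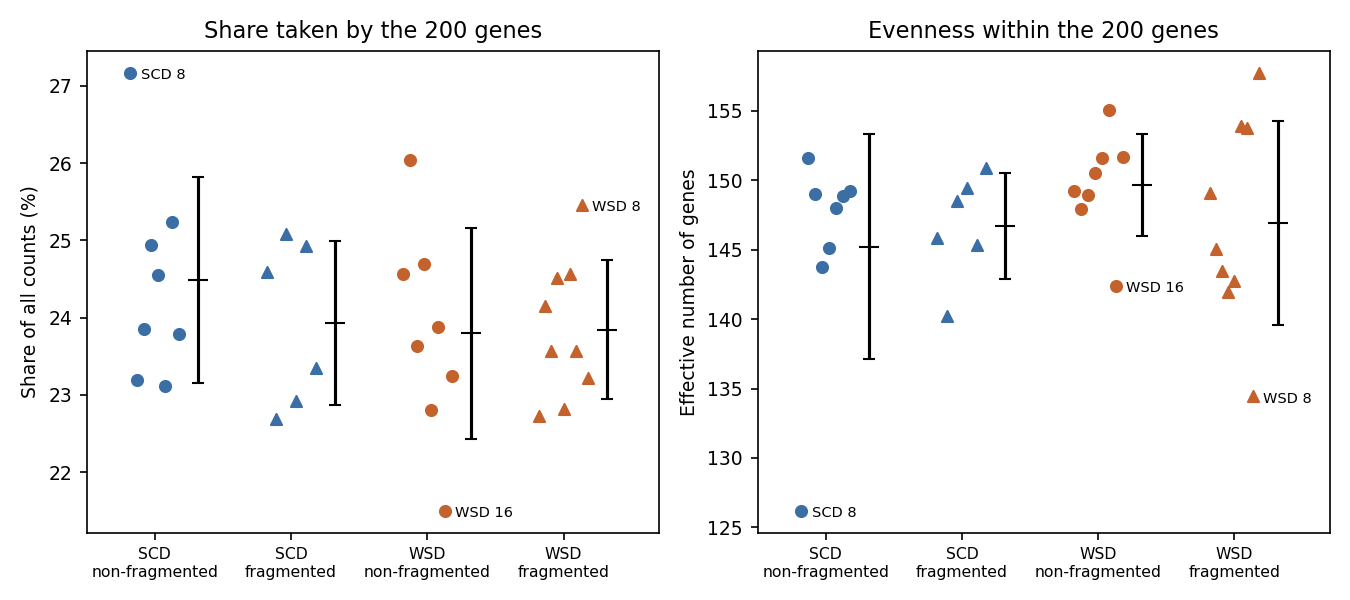
Share of all counts (%, left) taken by the 200 genes and the effective number of genes within them (right) in each blastocyst, with circles for non-fragmented and triangles for fragmented embryos, blue for SCD and orange for WSD, and bars for the mean ± SD of each group. The shares run from 21.5% in WSD 16 to 27.2% in SCD 8, and SCD 8 has the lowest effective number, 126.

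Within the 200, the 10 genes highest in each blastocyst, which differ between blastocysts, carried 22.2% ± 1.55 of the members' counts after SCD and 21.2% ± 1.40 after WSD. The difference of −1.06 points was below the SD of either diet, and it was −0.784 without the 3 libraries. The 50 highest in each blastocyst carried 54.7% ± 1.72 and 53.7% ± 1.66. Without the 3 libraries they carried 54.3% ± 0.895 and 53.3% ± 1.32. That difference of −0.937 points was above the SD of the SCD embryos and below that of the WSD embryos. The effective number of genes, which would be 200 if all had equal counts, was 146 ± 6.43 after SCD and 148 ± 5.91 after WSD. SCD 8 was the least even, at 126, and WSD 18 the most even, at 158. By class the effective number was 147 ± 6.01 in fragmented and 147 ± 6.48 in non-fragmented embryos.

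The list is a description of the typical embryo more than of each one. On average 154.7 of the 200 were among the 200 highest of a single blastocyst, from 117 in WSD 16 to 174 in SCD 15. Among the 200 genes, 51 were in the first 200 of every blastocyst, 102 in the first 400 and 157 in the first 1000. The 200 genes of highest median after SCD and after WSD shared 157, and those of the fragmented and non-fragmented classes shared 178. So the roster differed more between the diets than between the classes, and no test was made of that difference.

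NLRP7 and NLRP2 headed the list with KRT18. NLRP7 and NLRP2 encode NLR-family proteins of the oocyte and early embryo, known for maternal-effect roles in imprinting. NLRP7 was the most abundant gene in 25 of 31 blastocysts and stayed within the first 10 in every one. It ran from 4794 to 16302 CPM (median 9468) after SCD, and from 3483 to 13444 CPM (median 9385) after WSD, and most embryos of both diets lay in the same range. Its extremes were WSD 16 and SCD 8. NLRP2 ran from 2171 to 7317 CPM (median 5768) after SCD, and from 1323 to 8419 CPM (median 5408) after WSD. The log2 fold change from SCD to WSD was −0.02 for NLRP7 and 0.01 for NLRP2, with edgeR adjusted p of 0.961 and 0.987, and 8 and 7 of the 17 WSD blastocysts lay above the SCD median. The genes lie beside each other on chromosome 19 of Mmul_10, NLRP7 at 54653984 to 54680068 on the minus strand and NLRP2 at 54699186 to 54725219 on the plus strand, 19117 bases apart.

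Levels between genes were compared per kilobase of RefSeq exon, which 188 of the 200 genes had (94.0%). On that scale ACTB led with a median of 3312 CPM per kb, followed by KRT18 with 3305, NLRP7 with 2568, ACTG1 with 2329 and GAPDH with 1982. NLRP2 was seventh in CPM per kb, at 1601. Exon length here joins all RefSeq exons of a gene, and its median was 2726 bases over the 188. It was 3586 bases over the 9404 genes of the same identifier range with a median of at least 1 CPM and a RefSeq length. Those 9404 include the 188. Exons of 33 of the 200 overlap those of another RefSeq gene. Since the deposited counts do not state a strand, levels of those genes are uncertain, in a direction that is not known.

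Most of the 200 varied little between embryos. The spread of a gene, the SD of log2(CPM + 0.5) about the diet means, had a median of 0.43 over the 200, 0.45 over the next 200 and 0.69 over all 13184 genes tested. It was under 0.5 for 129 of the 200 and over 1 for 11, against 24.6% and 16.5% of all genes tested. Of the next 200, it was under 0.5 for 115 and over 1 for 4. The highest blastocyst exceeded the lowest by less than 4-fold for 115 genes and by more than 10-fold for 24. Without the 3 libraries the median spread of the 200 was 0.36, with 154 genes under 0.5 and 5 over 1. Spread showed little relation to level within the list (Spearman rho −0.0323 with median CPM over 200 genes, which share the same libraries).

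CCT7 and CCT3, subunits of the chaperonin that folds actin and tubulin, were the steadiest by this measure. CCT7 had a spread of 0.15 and ran from 628.8 CPM in SCD 5 to 1018 CPM in SCD 8. CCT3, whose exons overlap those of TSACC, had a spread of 0.18 and ran from 481.2 CPM in SCD 9 to 828.7 CPM in WSD 15. That order depended on the scale. Without the 3 libraries CCT7 was still the steadiest, while CCT3 was at place 12. With TMM scaling CORO1C, an actin-binding protein, had the lowest spread (0.17, against 0.19 for CCT7), and by median absolute deviation CCT4, another subunit, had the lowest (0.12, against 0.16 for CCT7).

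KRT19 and CTSV varied most. KRT19, a keratin of the trophectoderm epithelium, had a spread of 2.39. After SCD it ran from 73.0 to 2625 CPM (median 1481), and after WSD from 6.26 to 2625 CPM (median 116.8). The diets overlapped over nearly the whole range, and only 1 of the 17 WSD blastocysts, WSD 8, lay above the SCD median. CTSV, a lysosomal cysteine protease, had a spread of 1.43. It ran from 87.5 to 1794 CPM (median 246.7) after SCD, and from 197.5 to 2889 CPM (median 1336) after WSD. High and low embryos occurred on both diets, and 15 of the 17 WSD blastocysts were above the SCD median. Neither passed the test between the diets (log2 fold change −1.38 for KRT19, edgeR adjusted p = 0.229, and 1.40 for CTSV, edgeR adjusted p = 0.0848). CTSV did pass with DESeq2, with the low-count filter removed (log2 fold change 1.42), and without SCD 14 (1.71).

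**Figure D2:**
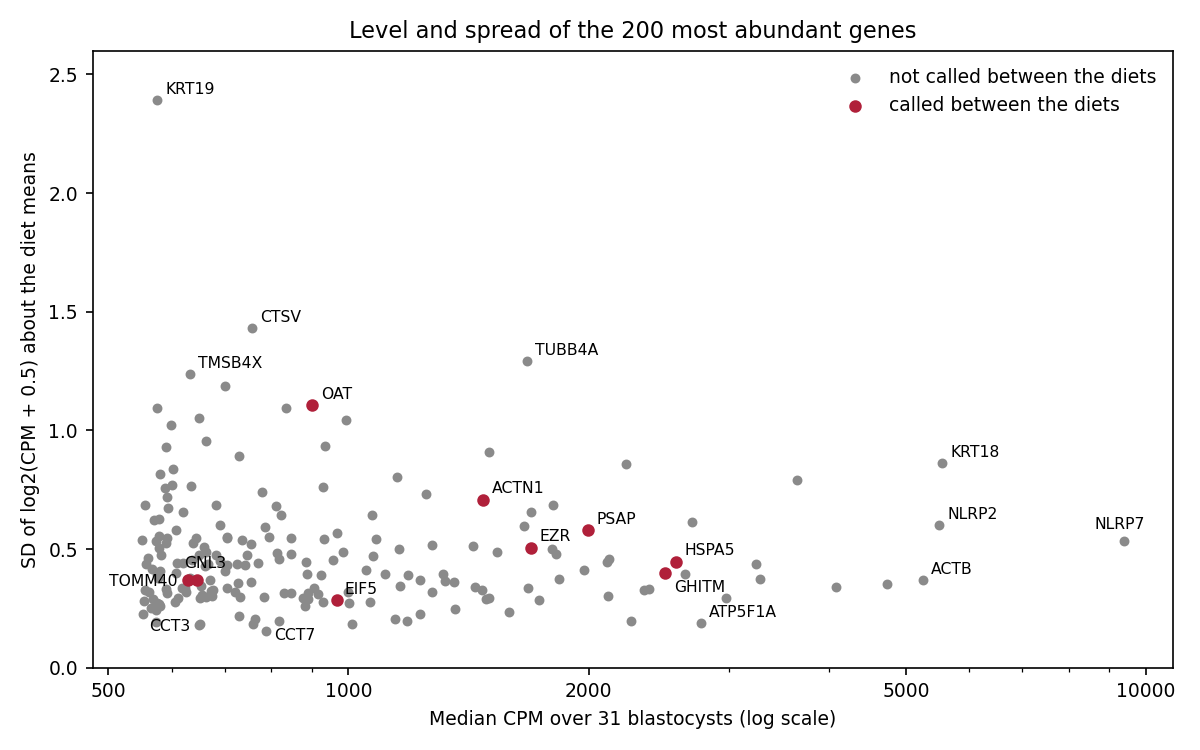
Spread between blastocysts (SD of log2(CPM + 0.5) about the diet means) against median CPM over 31 blastocysts (log scale), with a point for each of the 200 genes and red for the 9 called between the diets. KRT19 stands highest at 2.39 and CCT7 lowest at 0.15, and spread does not follow level.

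Between the diets, 6 of the 200 genes rose and 3 fell after WSD. OAT, HSPA5, GHITM, TOMM40, EIF5 and GNL3 rose, and PSAP, ACTN1 and EZR fell. None of the 9 was called once the number of detected genes was in the model, and with 1 embryo left out the count ran from 2 to 26. OAT changed most, with a log2 fold change of 1.43, and the median over the 200 was 0.03. Most fitted differences were small, with 183 of the 200 (91.5%) under 1.5-fold, against 77.5% of all genes tested. The 200 were chosen by level and varied less between embryos than all genes tested, and the part of that in the gap was not tested. In each of the 200 genes, the ranges of the SCD and WSD blastocysts overlapped.

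All 200 passed the filter on low counts. The test was the quasi-likelihood F test of edgeR, its p-values corrected by Benjamini and Hochberg's method over all 13184 genes, and a gene was called at an adjusted p under 0.05. It called 9 of the 200 (4.50%), where 2.08% of all genes tested were called. Of all genes tested 1.18% were called higher and 0.895% lower, beside the 6 and 3 of the 200. At an unadjusted p under 0.05 there were 60 of the 200 (30.0%), 40 higher and 20 lower, against 21.9% of all genes. Of the 200 genes next in rank 5 were called and 54 had an unadjusted p under 0.05, and no test was made of the difference from the first 200. DESeq2's Wald test called 23 of the 200 (15 higher, 8 lower), where it called 7.24% of all genes. With RLE scaling 9 were called, 6 higher and 3 lower, where 2.25% of all genes were called. That kept 8 of the first 9 and lost GNL3. With no scaling factor 10 were called, 4 higher and 6 lower, which kept 7 and lost HSPA5 and GNL3, where all genes tested had 139 higher and 130 lower.

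OAT, GHITM and TOMM40 act in the mitochondrion. OAT, the mitochondrial enzyme that converts ornithine, ran from 223.7 to 1697 CPM (median 400.3) after SCD, and from 159.8 to 3529 CPM (median 1730) after WSD. The ranges overlapped, with WSD 8 the lowest of all embryos, yet 16 of 17 WSD blastocysts lay above the SCD median (log2 fold change 1.43, SE 0.36, edgeR adjusted p = 0.0336). GHITM, an inner-membrane protein that helps shape the cristae, ran from 1492 to 3441 CPM (median 1881) after SCD, and from 1682 to 6177 CPM (median 3057) after WSD. All but 1 of the 17 WSD values were above the SCD median, and WSD 16 was far above the rest (log2 fold change 0.57, SE 0.16, edgeR adjusted p = 0.0465). TOMM40, the pore through which proteins enter mitochondria, ran from 359.3 to 810.5 CPM (median 558.2) after SCD, and from 534.6 to 1240 CPM (median 775.4) after WSD. The overlap was broad, with 15 of 17 WSD blastocysts above the SCD median (log2 fold change 0.51, SE 0.14, edgeR adjusted p = 0.0458).

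The other rises were in a folding, a translation and a nucleolar gene. HSPA5, the main chaperone of the endoplasmic reticulum, ran from 1580 to 3525 CPM (median 2297) after SCD, and from 1813 to 6318 CPM (median 3006) after WSD. Most embryos of both diets shared the same range, and 14 of 17 WSD blastocysts were above the SCD median (log2 fold change 0.59, SE 0.16, edgeR adjusted p = 0.0431). EIF5, which triggers GTP hydrolysis once the ribosome finds a start codon, ran from 355.8 to 1104 CPM (median 793.8) after SCD, and from 853.1 to 1277 CPM (median 1121) after WSD. The ranges overlapped, with all 17 WSD blastocysts above the SCD median and SCD 8 far below the rest (log2 fold change 0.50, SE 0.10, edgeR adjusted p = 0.0181). GNL3, a nucleolar GTPase of dividing and stem cells, ran from 176.1 to 786.8 CPM (median 529.9) after SCD, and from 523.5 to 858.6 CPM (median 708.1) after WSD. SCD 8 was again the lowest, and 16 of 17 WSD blastocysts exceeded the SCD median (log2 fold change 0.45, SE 0.12, edgeR adjusted p = 0.0480). HSPA5, EIF5 and GNL3 each share exon bases with an opposite-strand RefSeq gene, and their levels are uncertain by that.

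The falls were in a lysosomal gene and a pair of genes that act where actin meets the membrane. PSAP, the precursor of the saposins that help lysosomal enzymes break down sphingolipids, ran from 1643 to 5128 CPM (median 3173) after SCD, and from 515.6 to 3244 CPM (median 1404) after WSD. Of the WSD blastocysts 1 of 17, WSD 17, was above the SCD median (log2 fold change −1.05, SE 0.20, edgeR adjusted p = 0.0158). ACTN1, an actin crosslinker at cell adhesions, ran from 980.7 to 3132 CPM (median 2572) after SCD, and from 239.0 to 2419 CPM (median 1111) after WSD. None of the 17 WSD blastocysts reached the SCD median, though many overlapped the lower SCD embryos (log2 fold change −0.88, SE 0.23, edgeR adjusted p = 0.0374). EZR, which ties actin to the membrane of microvilli, ran from 1064 to 3975 CPM (median 2323) after SCD, and from 549.5 to 2366 CPM (median 1342) after WSD. Again 1 of 17 WSD blastocysts was above the SCD median, and WSD 16 was the lowest embryo for all 3 of these genes (log2 fold change −0.63, SE 0.17, edgeR adjusted p = 0.0450).

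**Figure D3:**
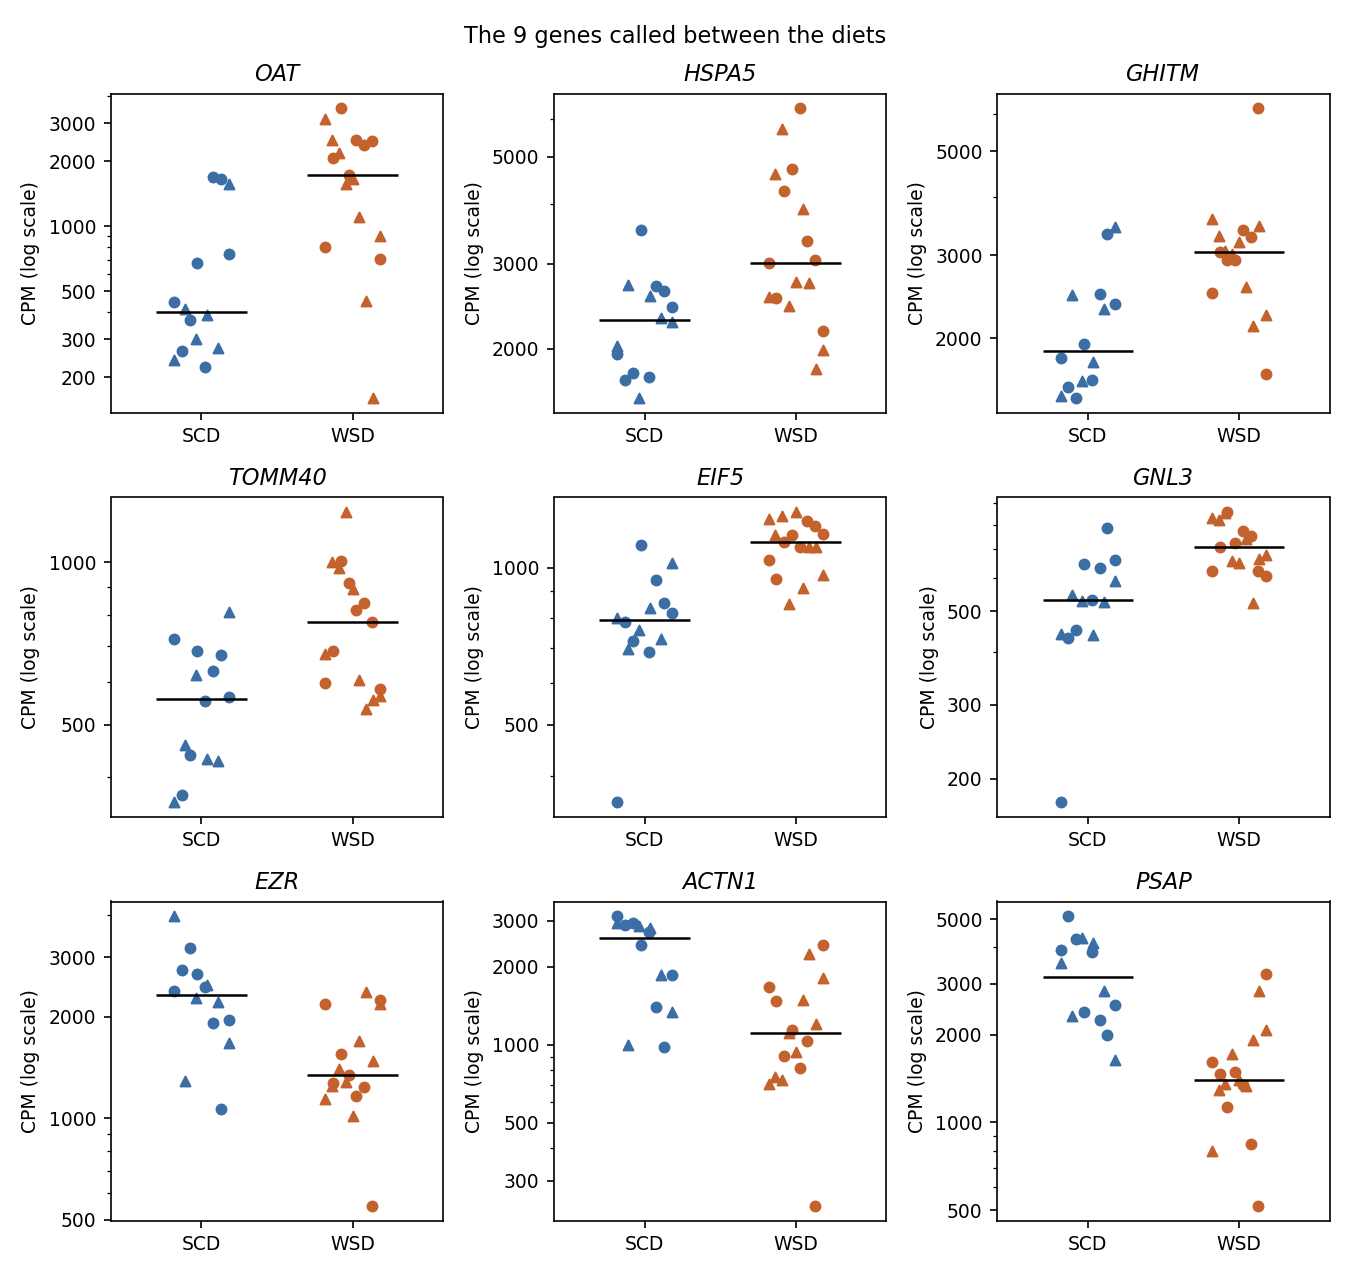
CPM (log scale) of the 9 called genes in each blastocyst by diet, with circles for non-fragmented and triangles for fragmented embryos and a line at each diet's median. In EIF5 all 17 WSD embryos lie above the SCD median of 793.8 CPM, and in ACTN1 none lies above the SCD median of 2572 CPM.

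The number of calls moved with single embryos. PSAP and EIF5 passed in all 31 fits that each left out 1 blastocyst, and the other 7 calls did not. Only those 2 genes were called without SCD 1, SCD 4, SCD 5, SCD 9, SCD 10, SCD 12, WSD 1, WSD 11 or WSD 14. There were 3 calls without WSD 2, WSD 3 or WSD 15, where OAT was kept as well. Leaving out SCD 6, WSD 5, WSD 12 or WSD 16 gave 4 calls, with GHITM, EZR, GNL3 and TOMM40 lost each time, HSPA5 lost except without WSD 5, ACTN1 lost without WSD 5, and OAT lost without WSD 16. Without WSD 4 there were 6, with GHITM, EZR, GNL3 and TOMM40 lost. GHITM and EZR were also lost without SCD 8 (with ACTN1 and HSPA5), SCD 11 and WSD 10 (with GNL3). GHITM, HSPA5 and TOMM40 were lost without SCD 15, and GNL3 without WSD 6. Where these 7 calls were lost, the log2 fold change stayed near that of the full fit, from 1.34 to 1.39 for OAT, 0.52 to 0.61 for HSPA5, 0.47 to 0.59 for GHITM, 0.47 to 0.52 for TOMM40, 0.43 to 0.47 for GNL3, −0.86 to −0.81 for ACTN1 and −0.63 to −0.53 for EZR. The edgeR adjusted p in those fits ran from 0.0502 to 0.0874.

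In the other direction the count reached 13 without SCD 13 or WSD 18, 15 without WSD 17, 17 without WSD 7 or WSD 8, 18 without SCD 7 and 26 without SCD 14. Without SCD 13, WSD 18, WSD 17, WSD 7, WSD 8, SCD 7 or SCD 14, all 9 genes were kept among the calls. The calls over all genes tested moved too, from 59 without SCD 10 to 815 without SCD 14, beside 274 in the full fit. Without SCD 8, WSD 8 and WSD 16 together 14 genes were called (8 rises, 6 falls), where 2.80% of all genes were called, which kept 7 of the 9 and lost EZR and GHITM. With library size as a covariate 6 were called, where 1.55% of all genes were called. That kept OAT, HSPA5, EIF5, GNL3 and PSAP, and GHITM, TOMM40, ACTN1 and EZR had edgeR adjusted p from 0.0525 to 0.0553. With same-number embryos as blocks PSAP alone was called, and the adjusted p of the other 8 ran from 0.0582 to 0.0757. With detected genes added as a covariate edgeR called 0 of the 200 and 0 of all 13184 genes. There were 19 of the 200 and 1041 of all genes with an unadjusted p under 0.05, and no other tool was run with it. All 9 calls were lost, and the log2 fold changes kept their direction and were smaller, at 0.91 for OAT, 0.46 for HSPA5, 0.40 for GHITM, 0.36 for TOMM40, 0.42 for EIF5, 0.37 for GNL3, −0.88 for PSAP, −0.74 for ACTN1 and −0.44 for EZR. The diets differ in this count but overlap in it, SCD blastocysts lying between 17211 and 25762 genes and WSD blastocysts between 14428 and 20863.

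Length moved with these values as well. Across the 188 genes with a RefSeq length, the diet log2 fold change had a Spearman rho of −0.206 with exon length. Across 11449 genes tested it was −0.309, so genes of greater exon length tended to be lower after WSD. Within single embryos the rho between a gene's deviation from its median and exon length ran from −0.684 in SCD 14 and −0.629 in WSD 16 to 0.535 in WSD 9. By diet it was 0.0534 ± 0.370 after SCD and −0.0545 ± 0.359 after WSD, a difference far inside the spread. The genes of an embryo share a library and are not independent, and the part of length in the diet result was not tested.

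Of the list genes that are among the 200, EIF5 alone passed the edgeR test between the diets. Of the cytoskeleton genes 7 of 14 are among the 200 (ACTB, ACTG1, TUBB4A, CFL1, TUBB, TUBA1A and TMSB4X), none was called by edgeR, 1 by DESeq2, and 2 had an unadjusted p under 0.05. Those were ACTB, a main actin of non-muscle cells, with a log2 fold change of −0.45 (edgeR adjusted p = 0.0849, 3 of 17 WSD above the SCD median), and TUBB4A, a beta-tubulin, with 1.16 (edgeR adjusted p = 0.0974, 15 of 17 above). ACTB ran from 4347 to 9744 CPM after SCD and from 2894 to 8061 CPM after WSD. ACTB passed without WSD 8 alone (log2 fold change −0.52) and without the 3 libraries (−0.47). TUBB4A passed with DESeq2 and without SCD 7 (log2 fold change 1.37). TUBB4A ran from 196.9 to 3214 CPM (median 543.3) after SCD, and from 263.7 to 4344 CPM (median 2052) after WSD. TMSB4X, which binds actin monomers, spanned 80.7 CPM in WSD 5 to 3393 CPM in WSD 8. The highest embryo was less than 4-fold above the lowest for the other 5 list members.

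The chaperone list held 7 genes of the table and leaves out other chaperones of the 200, such as HSPA5 and the CCT subunits. The 3 list genes among the 200 were all higher after WSD at an unadjusted p under 0.05, where 11.1% of all genes tested were. No test was made of that difference, and none of the 3 was called by edgeR or DESeq2. HSPA8, which folds new proteins in the cytosol, had a log2 fold change of 0.30 (edgeR adjusted p = 0.175, 12 of 17 WSD above the SCD median). HSP90AB1, a chaperone of signalling proteins, had 0.25 (edgeR adjusted p = 0.206, 13 of 17). HSPD1, which folds proteins inside mitochondria, had 0.37 (edgeR adjusted p = 0.165, 16 of 17). HSPD1 ran from 425.3 to 2513 CPM after SCD and from 1212 to 2459 CPM after WSD. The median of the 3 was 0.30, against −0.02 over all genes tested, and it was 0.29 with RLE factors and 0.28 with none.

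None of the energy genes named here was called between the diets. The 4 oxidative phosphorylation genes among the 200 all had a positive log2 fold change (median 0.17). Across the 77 genes of that list tested the median was 0.33, against −0.02 over all genes tested. Of those 77, 14 had an unadjusted p under 0.05, where 21.9% of all genes tested did. EdgeR called 1 of the 77 higher, and DESeq2 called 2. Of the oxidative phosphorylation genes among the 200, ATP5F1A, ATP5F1B and UQCRC1 were not called by edgeR or DESeq2, and none of them had an unadjusted p under 0.05. ATP5F1A, the alpha subunit of the ATP synthase, ran from 2152 to 3668 CPM after SCD and from 2417 to 3516 CPM after WSD, with a spread of 0.19. Glycolysis had 3 members of 8, with 2 of the 8 outside the identifier limit, a median of 0.05 and none called by either tool. GAPDH had a log2 fold change of 0.05, ALDOA had 0.06, and PGK1 had −0.50 (edgeR adjusted p = 0.214, 4 of 17 WSD above the SCD median). PGK1 was the only energy gene named here with an unadjusted p under 0.05. GAPDH ran from 2313 to 4321 CPM after SCD and from 2145 to 5001 CPM after WSD, and the ranges of the diets overlapped broadly.

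Of the 20043 genes under the identifier limit 200 are members, and whether ribosomal proteins are more or less common among them was not tested. Members were 3 of 83 (RPL13, RPL4 and RPL15), where 13 of the 83 lie outside the identifier limit. STAR's counts leave out reads that align to more than 1 place, and the effect of that on ribosomal protein genes was not tested. The median log2 fold change of the 3 members was 0.23, with 0 called by edgeR, 0 by DESeq2 and 0 at an unadjusted p under 0.05. Translation factors had 6 members of 62, and besides EIF5 none had an unadjusted p under 0.05. EIF4G2, an initiation factor for messages read without the usual cap complex, had the highest median of them, at 2230 CPM, and ran down to 239.8 CPM in WSD 16. EEF1A1, which brings aminoacyl-tRNA to the ribosome, ran from 376.7 to 881.0 CPM. EIF4A1 had a log2 fold change of 0.36, EIF3B −0.04, EIF3C −0.02 and EEF1A1 −0.02, and none of those 4 passed. Of 64 histone genes 42 lie outside the identifier limit and could not be members, among them the most abundant, H3-3B, with a median of 1248 CPM. H2AZ1 was the single member (log2 fold change 0.09, edgeR adjusted p = 0.793, 11 of 17 WSD above the SCD median). No mitochondrially encoded gene could be matched in the table.

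Cell type markers among the 200 were KRT18, KRT19 and POU5F1. KRT18, partner of KRT8 in the filaments of simple epithelium, ran from 2698 to 9659 CPM (median 7040) after SCD, and from 985.2 to 14329 CPM (median 3674) after WSD. WSD 8 was the highest of all embryos, and 5 of 17 WSD blastocysts lay above the SCD median (log2 fold change −0.51, edgeR adjusted p = 0.308). The 8 trophectoderm genes summed to 10374 ± 3053 CPM after SCD, from 3906 in SCD 7 to 13906 in SCD 6, and to 6515 ± 4575 CPM after WSD, from 1691 in WSD 3 to 18613 in WSD 8. None of the 7 tested was called by edgeR, DESeq2 called CDX2 and TFAP2C, and 3 had an unadjusted p under 0.05, all lower after WSD. Those were CDX2 (log2 fold change −0.93, edgeR adjusted p = 0.0962), GATA2 (log2 fold change −1.23, edgeR adjusted p = 0.104) and TFAP2C (log2 fold change −0.39, edgeR adjusted p = 0.0640). In whole embryos, fewer cells of a type and less RNA per cell cannot be told apart. POU5F1, the pluripotency factor of the inner cell mass, ran from 302.9 to 962.0 CPM (median 415.4) after SCD, and from 274.2 to 1262 CPM (median 700.5) after WSD. It did not pass (log2 fold change 0.43, edgeR adjusted p = 0.184), with 16 of 17 WSD blastocysts above the SCD median. The 6 inner cell mass genes summed to 826.3 ± 308.5 CPM after SCD and 1046 ± 285.7 CPM after WSD. POU5F1 made up most of both sums, with means of 509.8 and 679.6 CPM. The other inner cell mass genes went both ways, with log2 fold changes of 0.46 for DPPA5, 0.22 for DPPA4, 0.09 for KLF17, −0.10 for NANOG and −0.40 for TDGF1. None of the 6 was called by edgeR or DESeq2. The 6 hypoblast genes, none of them a member, summed to 1963 ± 1122 and 1441 ± 1086 CPM. The part of these cell types in the diet results was not tested.

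By fragmentation class the 200 genes differed little. None was called higher or lower in fragmented embryos, and the classes overlapped in the genes with the smallest p. With diet in the model, edgeR called 0 of the 200, where 0% of all 13184 genes were called, and DESeq2 also called 0 of the 200, against 0.114% of all genes. At an unadjusted p under 0.05 edgeR had 1 of the 200, against 3.26% of all genes. The log2 fold changes of the 200, fragmented over non-fragmented, ran from −0.49 to 0.70 with a median of −0.02, and their median size was 0.07, against 0.15 over all genes tested. Leaving out any single blastocyst gave 0 calls, as did leaving out SCD 8, WSD 8 and WSD 16.

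C1QBP, a protein of the mitochondrial matrix needed for its translation, had the smallest p. It ran from 602.5 to 2477 CPM (median 1591) in fragmented embryos, and from 601.0 to 5875 CPM (median 1879) in non-fragmented embryos. The classes overlapped over much of their range, and WSD 16 was the highest embryo. Of the fragmented embryos 9 of 15 were below the non-fragmented median (log2 fold change −0.49, SE 0.24, unadjusted p = 0.0458, edgeR adjusted p = 1.0). C1QBP shares exon bases with RPAIN on the other strand. Of genes higher in fragmented embryos, APLP2, a relative of the amyloid precursor protein, had the smallest p. It ran from 644.7 to 2173 CPM (median 973.7) in fragmented embryos, and from 381.6 to 1855 CPM (median 831.1) in the others. The ranges overlapped, with 11 of 15 fragmented embryos above the non-fragmented median (log2 fold change 0.31, SE 0.19, unadjusted p = 0.109, edgeR adjusted p = 1.0).

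The oocyte marker genes were higher on average in fragmented embryos, though edgeR called none of the 3 tested. The 5 in the table summed to 28.5 ± 34.0 CPM in fragmented and 6.31 ± 12.8 CPM in non-fragmented embryos, led by GDF9 (log2 fold change 2.87, unadjusted p = 3.5e-05, edgeR adjusted p = 0.276, not called by edgeR and called by DESeq2). None of the 5 is among the 200 genes. Fragmented embryos also had more genes detected (19620 on average, against 18060) and larger total counts (21853184, against 17451301). Across the 188 genes with a RefSeq length, the log2 fold change of fragmented over non-fragmented embryos had a Spearman rho of 0.218 with exon length. The part of these measures, of length and of the oocyte genes in the class result was not tested.

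The diet difference was also compared between the classes, by the interaction of diet and fragmentation. No gene of the 200 differed by that test, and the diet differences of fragmented and non-fragmented embryos could not be separated. The test called 0 of the 200, where 0% of all genes were called, DESeq2 called 0, and 5 of the 200 had an unadjusted edgeR p under 0.05, against 3.29% of all genes. ITM2B, a membrane protein of the secretory pathway, had the smallest p with a negative term (log2 −0.91, SE 0.36, unadjusted p = 0.0165, edgeR adjusted p = 0.992), and ran from 384.5 to 1534 CPM after SCD and from 279.0 to 1424 CPM after WSD. TRIM72, known for membrane repair in muscle, had the smallest with a positive term (log2 0.50, SE 0.22, unadjusted p = 0.0339, edgeR adjusted p = 0.992), and ran from 361.8 to 800.9 CPM after SCD and from 431.1 to 851.9 CPM after WSD. Both genes overlapped broadly between the diets.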

How the data were processed

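The authors sequenced cDNA of single blastocysts, trimmed the reads with Trimmomatic 0.39, aligned them with STAR 2.7.0 to Mmul_10 and deposited raw read counts per Ensembl gene, 1 column per blastocyst, with no normalization; they had removed 2 outlying blastocysts. STAR counts reads that align to 1 place, and the strand column kept is not stated. Of 35395 identifiers 24173 had a symbol in the reference table. RefSeq annotation of Mmul_10 gave positions and exon lengths. Genes were filtered with filterByExpr by diet and scaled by TMM, and edgeR 4.0.16 in R 4.3.3 (glmQLFTest, legacy = TRUE, robust = FALSE, adjusted p under 0.05) tested diet, fragmentation with diet in the model, and their interaction, over all 31 blastocysts. SE was taken from each fold change and its F statistic. Spread used log2(CPM + 0.5). Permutation tests of the shares and concentration had been planned; since the genes were chosen by level in these data, those measures are given without p. The members and lists were chosen with earlier results of these data known.

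Named genes were the 3 of highest median CPM, the 2 with the lowest and the 2 with the highest spread, up to 10 called genes per direction and comparison (or the gene of smallest p where none was called), and all members of the function and marker lists but 1, which is not reported here, 46 genes in all; marker genes outside the 200 were named after their values were seen. Alternatives were DESeq2 1.42.0, RLE or no scaling, no filter or 1 CPM in 14 blastocysts, legacy = FALSE, robust = TRUE, a replicate block, covariates, other choices of members, other scales of spread, another denominator of the share, and each blastocyst left out in turn. Leaving out SCD 8, WSD 8 and WSD 16 together, and a formula design for DESeq2, were chosen after seeing the data. Python 3.11.15, scipy 1.17.1 and matplotlib 3.10.9 were used for summaries and figures.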

Additional observations from a re-analysis of the deposited data

Results flagged for a closer look

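In 8 of 96 groups of 6 to 9 blastocysts of the same diet and fragmentation class, the highest or lowest embryo lay far from its nearest neighbour relative to the range of the group. Chance flags about 1 in 20 independent groups, a rate that does not apply here, since the groups share libraries and some of the genes were picked for a high spread or a small p. No cause was tested. Among non-fragmented SCD embryos, SCD 8 had an effective number of genes of 126, with the next at 144. Among non-fragmented WSD embryos, WSD 16 had 117 of the 200 genes in its own first 200, with the next at 152. In the same group, WSD 16 had GHITM at 6177 CPM with the next at 3399, and C1QBP at 5875 CPM with the next at 3008. WSD 17 had PSAP at 3244 CPM with the next at 1608. Among fragmented WSD embryos, WSD 7 had APLP2 at 1856 CPM with the next at 1211, and WSD 8 had KRT19 at 2625 CPM with the next at 1192. Among fragmented SCD embryos, SCD 7 had OAT at 1565 CPM with the next at 413.5.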

How the results depend on the processing

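The share differences by diet and by class, over all embryos, kept their sign and stayed within 1 SD under every alternative run. The class difference within WSD alone turned to −0.101 points with only genes under the identifier limit as denominator. The diet difference was −0.265 points over embryos of the same number (the replicate block), and −0.560 to −0.196 with 1 embryo left out. Those numbers only count blastocysts within a diet. Residuals of same-number pairs correlated at 0.0234 on average, which alone cannot show whether the numbers pair embryos. The count of members called for diet was 9, and became 23 with DESeq2 (its design a model matrix or a formula), 16 with no filter, 18 with legacy = FALSE, 14 without SCD 8, WSD 8 and WSD 16, 1 with the replicate block, 0 with detected genes as covariate, 17 among 500 genes, 6 to 11 under the others, and 2 to 26 with 1 embryo left out. All genes tested moved with it, from 2.08% called to 7.24% with DESeq2, 6.81% with no filter, 7.27% with legacy = FALSE, 2.80% without the 3 libraries, 0.0531% with the replicate block and 0% with detected genes. Under the other alternatives with all embryos that share ran from 1.55% with library size as covariate to 2.98% with the filter at 1 CPM. The cause was not tested, beyond the longer list of 500. The fragmentation and interaction counts were 0 with DESeq2 and under each other filter, scaling and edgeR option, as was the fragmentation count with 1 embryo left out. Neither was run with the block, the other covariates or other members, nor the interaction with 1 embryo left out. All 9 called genes kept their direction. Small log2 fold changes that never passed turned sign. Without the 3 libraries NLRP7 was 0.18, GAPDH −0.0284, RPL4 −0.0229, EIF3C 0.0782, EIF3B 0.12 and H2AZ1 −0.0945. With the replicate block NLRP7 was 0.0987 and GAPDH −0.0191, and with fragmentation as covariate NLRP7 was 0.00379. With detected genes NLRP2 was −0.0491, GAPDH −0.0243, CFL1 0.00326 and ALDOA −0.0435. With 1 embryo left out NLRP7 ran from −0.0664 to 0.0746, NLRP2 from −0.0493 to 0.0879, GAPDH from −0.00335 to 0.12, EIF4G2 from −0.00714 to 0.15, EIF3B from −0.0890 to 0.0359, EIF3C from −0.0741 to 0.0234, EEF1A1 from −0.0566 to 0.0346 and H2AZ1 from −0.00334 to 0.18. The lowest count of any of the 200 genes was 152. With library size as a covariate 6 of the 200 were called, which kept 5 of the 9, and the part of depth in the calls was not tested.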

Other observations

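The genes of this paragraph are among the 200 and were chosen after their values were seen. The chaperonin that folds actin and tubulin has 7 subunit genes there (TCP1, CCT3, CCT4, CCT5, CCT6A, CCT7 and CCT8), and the log2 fold change from SCD to WSD was positive for all 7, also with RLE factors and with no scaling factor. It ran from 0.16 for CCT7 to 0.38 for CCT8, and none was called by edgeR or DESeq2. At an unadjusted p under 0.05 there were 5, where 11.1% of all genes tested were higher at that limit, and no test was made of that difference. TCP1 ran from 296.4 to 980.1 CPM (median 760.9) after SCD and from 636.2 to 1125 CPM (median 934.1) after WSD. SCD 8 was the lowest embryo, and 16 of the 17 WSD blastocysts were above the SCD median.

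Of other lysosomal genes among the 200, the ones given here were chosen after their values were seen, no list of such genes was tested, and none given here passed with edgeR. CTSL, a cysteine protease, was just outside the limit of edgeR (log2 fold change −1.37, edgeR adjusted p = 0.0503, 1 of 17 WSD blastocysts above the SCD median) and was called by DESeq2. It ran from 422.0 to 9519 CPM (median 1668) after SCD and from 114.4 to 3250 CPM (median 599.6) after WSD, with SCD 3 the highest. CTSD, an aspartic protease, had a log2 fold change of −0.75 (edgeR adjusted p = 0.0849, 3 of 17 above) and was called by DESeq2. LAMP2, of the lysosomal membrane, had −0.87 (edgeR adjusted p = 0.136, 2 of 17 above), whereas LAMP1 had 0.04 (edgeR adjusted p = 0.884, 9 of 17 above). CTSV, described above, lay in the other direction at 1.40. Of further lysosomal genes there, CTSB had −0.39, FUCA1 −0.49, PPT1 −0.22, ATP6V1B2 −0.02 and LAPTM4B 0.47, and edgeR called none of them.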
